A study of Mus musculus with 8 samples.

Results

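ICAM-1 and ICAM-2 are cell surface proteins of the immunoglobulin superfamily. Both bind the leukocyte integrin LFA-1, a heterodimer of the chains encoded by Itgal and Itgb2, and ICAM-1 on a dendritic cell (DC) is best known for holding a T cell in contact while antigen is presented. LFA-1 binds its ligands tightly after signals inside the cell recruit talin and kindlin to its tail. The comparison described here asks which transcripts differ, before any activation, between DCs of chimeric mice labelled ICAM-1/2 DKO/WT and DCs of chimeras labelled WT/WT.

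It uses 4 of the 8 libraries of the series: 2 of resting DCs labelled ICAM-1/2 DKO/WT (called DKO) and 2 of resting DCs labelled WT/WT (called WT). The source in each case was the popliteal lymph nodes of untreated C57BL/6 chimeras aged 16 weeks (8 weeks post BMT), and the sort used CD45, CD11c and MHC-II. The labels do not spell out which name stands for the donor, which parts of Icam1 and Icam2 were deleted, or which host cells remained. The other 4 libraries, of the same chimeras after 10 µg of an antibody against CD40 (aCD40 mAb) given into the footpad, served to estimate the spread and are set beside the resting values where said. Polyadenylated RNA was measured by bulk MARS-seq, which tags the 3′ end of each captured molecule with a unique molecular identifier (UMI). WT libraries 1 and 2 held 1294777 and 711254 UMIs, and DKO libraries 1 and 2 held 401984 and 760053, so the shallowest library is a DKO library. Levels are given in CPM, UMI counts scaled to a common library size after TMM scaling, which compare libraries and not genes. Differences are log2 fold changes, DKO minus WT, with their standard error (SE). A gene is called where edgeR's quasi-likelihood test, adjusted by Benjamini-Hochberg over all tested genes, gave an adjusted p under 0.05. The labels do not say that both libraries of a group are separate animals, and p-values therefore reflect the spread among these libraries alone, be it technical or not.

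The label "classical DCs" was checked against defining markers. Zbtb46, the transcription factor that marks classical DCs, had 2 and 1 UMIs in WT and 0 and 1 in DKO, and the cDC1 receptor gene Xcr1 had 8 and 2 in WT and 1 and 1 in DKO. Itgax, which encodes CD11c, stood at 30.2 and 28.1 CPM in WT against 26.1 and 16.1 CPM in DKO. The B cell gene Cd79b had 5163 and 2801 UMIs in WT and 1649 and 3548 in DKO, or 3627 and 3747 CPM against 3910 and 4392 CPM. Cd79b was thus abundant in all 4 libraries, whereas Zbtb46 and Xcr1 were below or near the floor of 3 UMIs in most, so the libraries are named here by their labels and not as pure DCs. The lineage of any transcript below cannot be assigned, and in bulk RNA fewer cells of a type and less RNA per cell cannot be told apart.

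Few genes separated the genotypes at rest. Of 8616 tested genes, 14 were called (0.162%), 5 higher in DKO (0.058%) and 9 lower (0.104%), each by at least 2-fold. The higher genes were BC018473, St6galnac2, Eps8l1, Ccl17 and Kdm5d. The lower genes were Icam1, the chemokine genes Ccl3, Ccl4 and Xcl1, the T cell surface genes Cd8a, Cd8b1, Cd28 and Izumo1r, and the plasma cell gene Jchain. An unadjusted p under 0.05 was reached by 184 genes higher in DKO (2.14%) and by 264 lower (3.06%), and both DKO libraries lay above both WT libraries for 1410 genes (16.4%) and below them for 1503 (17.4%). The median difference over all tested genes was −0.00 and the median SE 0.36. For 4260 tested genes (49.4%) the 95% interval excluded a 2-fold difference in either direction, and the same held for 96.3% of the 1564 genes that averaged 7 or more on the log2 CPM scale. Leaving out single libraries, which leaves a group with 1 library assumed to vary like the others, kept 3 genes called throughout: Icam1, BC018473 and St6galnac2. In all, 3 genes were called without DKO resting replicate 2, 4 without WT resting replicate 1, 6 without DKO resting replicate 1 and 7 without either DKO activated library. The authors' deposited table for this comparison, with its sign turned to DKO over WT, lists 2 genes higher and 3 lower at an adjusted p under 0.05, namely BC018473, St6galnac2, Icam1, Ccl4 and Ccl3.

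**Figure D1:**
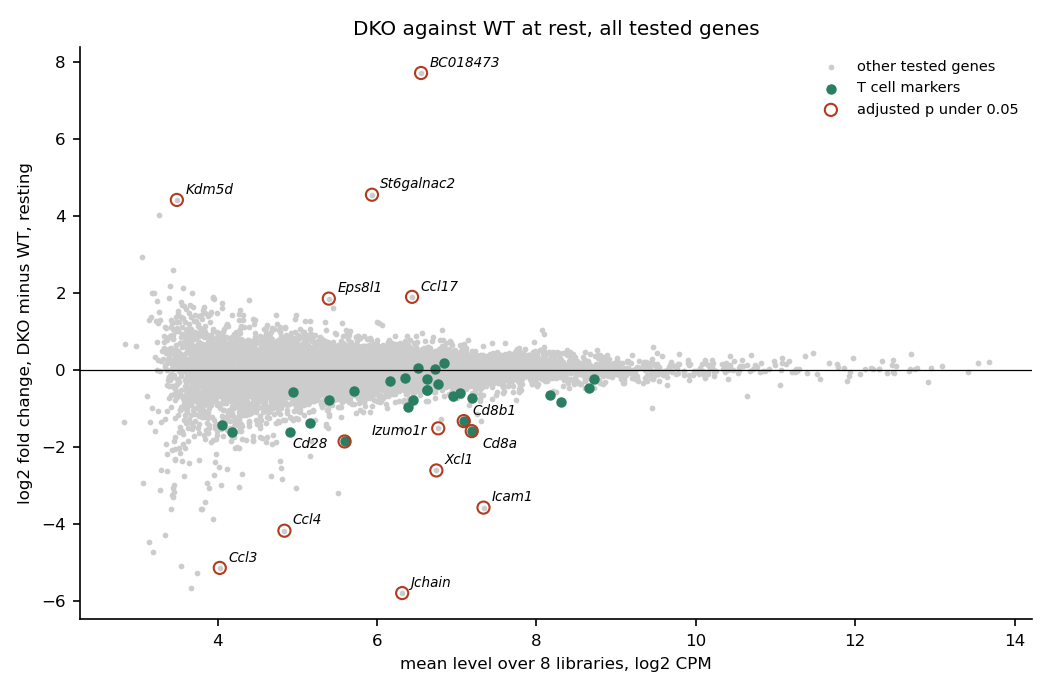
Each point is 1 of the 8616 tested genes, with its mean log2 CPM over the libraries on the x axis and its log2 difference, DKO minus WT at rest, on the y axis. Open circles with names are the 14 called genes and filled green points are the T cell markers, of which most lie below 0.

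Icam1, the first targeted gene (chr9:21015985-21028817, plus strand, coordinates from the GENCODE annotation of GRCm38), was low in both DKO libraries. It stood at 168 and 123 CPM in WT against 9.49 and 13.6 CPM in DKO, that is 239 and 92 UMIs against 4 and 11. The groups did not overlap, and the residual signal in DKO exceeded the floor of 3 UMIs in both libraries. The difference was −3.59 ± 0.34 (edgeR adjusted p = 2.45e-08). A gene annotated on the opposite strand, Gm47079, overlaps Icam1, and the strand setting of the authors' counting is not known here.

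Icam2, the second targeted gene, was not separated between the groups. It stood at 200 and 219 CPM in WT against 230 and 135 CPM in DKO, so that 1 DKO library lay above and 1 below both WT libraries. The difference was −0.23 ± 0.25 with a 95% interval of −0.74 to 0.27 (edgeR adjusted p = 0.999), and it was −0.61 without DKO resting replicate 1 and 0.14 without DKO resting replicate 2. MARS-seq reads the 3′ end, and a 3′ tag outside the deleted part checks nothing about the allele.

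Of the other LFA-1 genes, none was called. Icam4, which in humans encodes the Landsteiner-Wiener blood group protein, begins 0.555 kb downstream of Icam1 on the same strand. It had 2 and 2 UMIs in WT and 6 and 13 in DKO, or 1.41, 2.68, 14.2 and 16.1 CPM. Both DKO libraries lay above both WT libraries, with a difference of 2.92 ± 0.99 (edgeR adjusted p = 0.623). The integrin chains themselves differed little, Itgal at 184 and 166 CPM in WT against 164 and 156 CPM in DKO (−0.14 ± 0.23) and Itgb2 at 281 and 272 CPM against 256 and 245 CPM (−0.14 ± 0.21). Rap1b, a GTPase upstream of LFA-1 activation, stood at 355 and 381 CPM in WT against 247 and 293 CPM in DKO (−0.43 ± 0.20, edgeR adjusted p = 0.921). Talin (Tln1, 0.27 ± 0.21), kindlin-3 (Fermt3, −0.00 ± 0.22), Rap1a (0.00 ± 0.23) and the Rap1 effector gene Apbb1ip (0.06 ± 0.22) showed no separation, and the 95% intervals of these 4 genes and of both integrin chains excluded a 2-fold difference. Of 26 tested genes of other leukocyte adhesion molecules none was called. An unadjusted p under 0.05 was reached by 4, all lower in DKO, against 3.06% of all tested genes. They were Cd6 (−0.70), Selplg (−0.49), Cd44 (−0.64) and Itgb1 (−0.67).

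Both of the most significant genes lie next to each other on chromosome 11. BC018473, annotated as an antisense transcript (chr11:116752167-116759373), was nearly undetected in WT, with 2 and 0 UMIs, and had 97 and 177 UMIs in DKO. In CPM it stood at 1.41 and 0 against 230 and 219. Over the summed, depth-scaled counts the DKO to WT ratio was 242 (exact 95% counting interval 66.3 to 2007), and the fitted 7.70 ± 0.50 (edgeR adjusted p = 4.65e-12) is set in part by the prior count. The enzyme encoded by St6galnac2 adds sialic acid to O-linked glycans. This gene (chr11:116675303-116694868) stood at 4.92 and 8.03 CPM in WT against 168 and 125 CPM in DKO. The difference was 4.54 ± 0.40 (23.3-fold higher, edgeR adjusted p = 8.18e-09), with no overlap between the groups. A gap of 57.298 kb lies between them. On the other side of St6galnac2, 20.989 kb away, lies Cygb, the gene of the globin cytoglobin, with 7.73 and 9.36 CPM in WT and 30.8 and 22.3 CPM in DKO (1.60 ± 0.55, edgeR adjusted p = 0.642). Icam2 is on the same chromosome, 10287 kb from St6galnac2. Of 32 tested genes within 2 Mb of Icam2 none was called, and of 46 tested genes within 2 Mb of Icam1 the single call was Icam1. Farther off, the called gene Izumo1r starts 6.13 Mb from the start of Icam1 on chromosome 9. The called genes Ccl3 and Ccl4 each start 22.7 Mb from the start of Icam2 on chromosome 11. The part of position on a targeted chromosome in these calls was not tested. The other 22 tested genes of sialic acid synthesis and transfer held no call. At an unadjusted p under 0.05, 2 of them were higher and 2 lower, against 2.14% and 3.06% of all tested genes. The higher ones, Cd22 (0.41) and Cd33 (1.56), encode receptors that bind sialic acid and not enzymes, and Cd22 is also among the B cell markers. The lower ones were the transferase genes St3gal6 (−2.52) and St6galnac6 (−1.52).

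**Figure D2:**
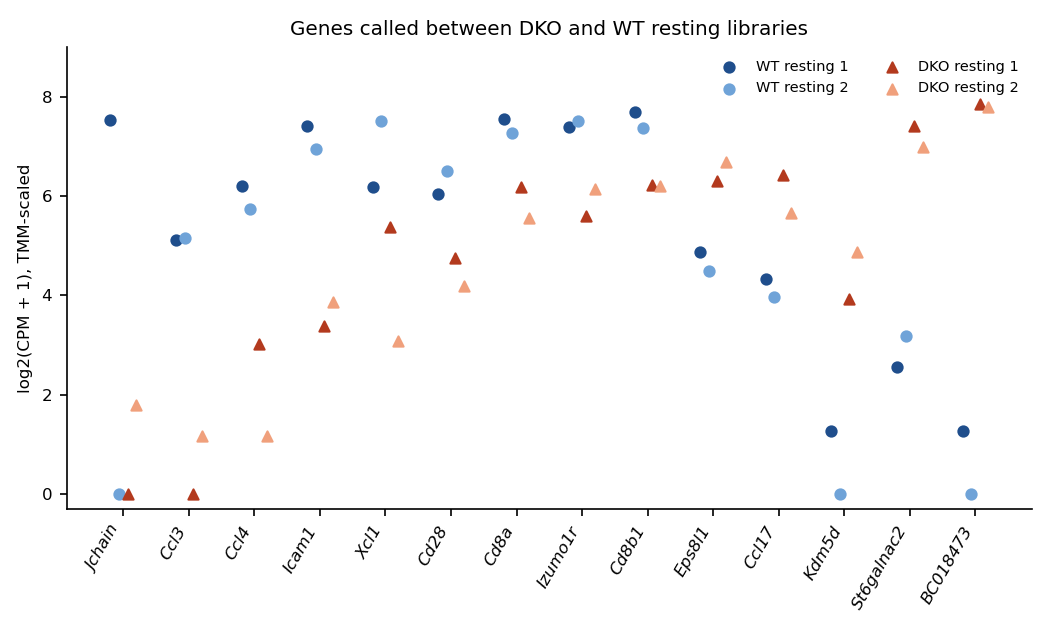
Levels of the 14 called genes in the 4 resting libraries, on a log2(CPM + 1) axis. Each point is 1 library, circles for WT and triangles for DKO. All genes but Jchain have both DKO libraries on the same side of both WT libraries, and Jchain is high in WT library 1 alone.

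Chemokine genes that NK and T cells are known to express, Ccl3, Ccl4 and Xcl1, were lower in DKO. Ccl3 and Ccl4 encode inflammatory chemokines of the CC family and lie 13.228 kb apart on chromosome 11, and Xcl1 encodes the ligand of XCR1, the receptor on cDC1. Ccl4 stood at 73.1 and 52.2 CPM in WT against 7.11 and 1.24 CPM in DKO. Its difference was −4.18 ± 0.68 (18.2-fold lower, edgeR adjusted p = 0.00154). Ccl3 had 48 and 26 UMIs in WT and 0 and 1 in DKO, a WT to DKO ratio of 41.9 (exact 95% counting interval 7.29 to 1678, edgeR adjusted p = 0.00856). The groups did not overlap for either gene, and their DKO levels rest on at most 3 UMIs a library. Xcl1 stood at 71.7 and 182 CPM in WT against 40.3 and 7.43 CPM in DKO (−2.62 ± 0.48, edgeR adjusted p = 0.00948). The groups did not overlap, but the spread within each was wide. Leaving out single libraries cost Ccl4 its call without WT resting replicate 1 (−3.87) or DKO resting replicate 2 (−3.13), and Ccl3 without WT resting replicate 1 (−5.14), DKO resting replicate 1 (−4.61) or DKO resting replicate 2 (−7.73). Xcl1 lost it without WT resting replicate 2 (−1.83), DKO resting replicate 2 (−1.59) or either DKO activated library (−2.62 each).

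Among 30 tested chemokine and receptor genes, 1 was called higher (0.058% of all tested genes) and 3 lower (0.104%). The higher one was Ccl17, a CCR4 ligand that maturing DCs secrete, at 19.0 and 14.7 CPM in WT against 85.4 and 49.5 CPM in DKO. The difference was 1.89 ± 0.40 (3.70-fold higher, edgeR adjusted p = 0.037). Ccl22, the other CCR4 ligand, stood at 108 and 82.9 CPM in WT against 147 and 113 CPM in DKO (0.39 ± 0.25, adjusted p = 0.999 by edgeR). Cxcr3, a receptor of effector T and NK cells, chosen after its values were seen because it just missed the threshold, stood at 49.9 and 36.1 CPM in WT against 11.9 and 6.19 CPM in DKO (−2.37 ± 0.53, edgeR adjusted p = 0.0503). The homing receptor Ccr7 was at −0.10 ± 0.22, with 295, 265, 280 and 248 CPM, and Ccl5, a chemokine gene of T and NK cells, at −0.07 ± 0.19, both with 95% intervals that excluded a 2-fold difference. The Ccl17 call was lost without any 1 of the resting libraries (1.52 to 2.29) or of the DKO activated libraries (1.89 each).

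The T cell surface genes Cd8a, Cd8b1, Cd28 and Izumo1r were lower in DKO. Cd8a and Cd8b1 encode both chains of the CD8 coreceptor and lie 35.932 kb apart on chromosome 6. Cd8a stood at 185 and 153 CPM in WT against 71.1 and 45.8 CPM in DKO (−1.60 ± 0.31, 3.03-fold lower, edgeR adjusted p = 0.0182). Cd8b1 stood at 205 and 163 CPM in WT against 73.5 and 73.0 CPM in DKO (−1.34 ± 0.28, 2.53-fold lower, edgeR adjusted p = 0.0321). The groups did not overlap for either chain. Cd8a is also expressed by cDC1, whereas Cd8b1 is known as a T cell gene. Cd28, the costimulatory receptor of T cells for CD80 and CD86, stood at 64.6 and 89.6 CPM in WT against 26.1 and 17.3 CPM in DKO (−1.87 ± 0.41, edgeR adjusted p = 0.049). Izumo1r, the folate receptor 4 gene of regulatory T cells, stood at 167 and 182 CPM in WT against 47.4 and 69.3 CPM in DKO (−1.53 ± 0.34, edgeR adjusted p = 0.049). Both also had groups that did not overlap. Without single libraries Cd8a lost its call on leaving out WT resting replicate 1 (−1.43), DKO resting replicate 1 (−1.88) or DKO resting replicate 2 (−1.26), and Cd8b1 on leaving out the same libraries (−1.15, −1.33 and −1.33) or WT activated replicate 2 (−1.34). Cd28 (−2.11 to −1.53) and Izumo1r (−1.87 to −1.31) lost theirs without any 1 of the resting or of the DKO activated libraries.

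Promoter sequences were read for the called genes, which share a direction within each group because they were selected by it. The 250 bases before the start were available for 9 of the 14 called genes, 6 of the 9 lower genes and 3 of the 5 higher ones. The RUNX core TGTGGT, the core bound by RUNX factors and searched on both strands, was in 3 of the 6 lower genes and in 0 of the 3 higher genes, and 4614 of 32851 windows of the same length hold it. The motif was chosen after the sequences had been seen, so its counts in so few genes cannot test a link to RUNX factors. TATAAA (12.4% of windows), TGANTCA (6.75%) and the NF-kB consensus (7.25%) had no match in these 6 genes. The 3 windows with a match are printed from RefSeq (GRCm38.p6), 5′ to 3′ on the gene's strand, with the match in capitals, which reads ACCACA where it lies on the other strand. The first base of the match lies 122 bases before the start for Ccl3 (chr11:83649379-83649628, minus strand), 227 for Xcl1 (chr1:164935523-164935772, minus strand) and 127 for Izumo1r (chr9:14903768-14904017, minus strand).
Ccl3: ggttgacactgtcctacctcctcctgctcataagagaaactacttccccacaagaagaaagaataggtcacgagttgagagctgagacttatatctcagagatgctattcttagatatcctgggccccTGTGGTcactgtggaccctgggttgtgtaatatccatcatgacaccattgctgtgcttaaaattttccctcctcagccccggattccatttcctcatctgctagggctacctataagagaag
Izumo1r: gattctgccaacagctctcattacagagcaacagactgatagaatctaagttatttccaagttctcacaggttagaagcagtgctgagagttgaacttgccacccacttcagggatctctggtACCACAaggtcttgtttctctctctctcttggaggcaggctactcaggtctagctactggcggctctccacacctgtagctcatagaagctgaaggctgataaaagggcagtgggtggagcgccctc
Xcl1: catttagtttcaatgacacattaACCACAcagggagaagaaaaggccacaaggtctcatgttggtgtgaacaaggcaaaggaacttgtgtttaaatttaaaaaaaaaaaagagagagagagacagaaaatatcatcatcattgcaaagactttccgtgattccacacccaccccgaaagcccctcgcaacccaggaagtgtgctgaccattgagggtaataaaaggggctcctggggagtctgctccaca

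Of 28 tested T cell markers, 0 were called higher and 3 lower, against 0.058% and 0.104% of all tested genes. The 3 were Cd8a, Cd8b1 and Cd28. An unadjusted p under 0.05 was reached by 14, all lower in DKO, against 3.06% of all tested genes, and both DKO libraries lay below both WT libraries for 19 of 28, against 17.4%. The median difference of the list was −0.63. Their summed level was 4330 and 4896 CPM in WT and 3619 and 2696 CPM in DKO. Examples chosen after their values were seen are the kinase gene Lck, at 428 and 524 CPM in WT and 296 and 234 CPM in DKO (−0.85 ± 0.22, edgeR adjusted p = 0.175), and the inhibitory receptor gene Ctla4 at −1.62 ± 0.49. Foxp3, the regulatory T cell transcription factor, stood at 39.3 and 77.6 CPM in WT against 16.6 and 24.8 CPM in DKO (−1.39 ± 0.43, edgeR adjusted p = 0.537). Of the CD3 chain genes, Cd3d and Cd3g, chosen after their values were seen, were at −0.73 ± 0.31 and −0.60 ± 0.28. Cd3e at −0.30 ± 0.31, Cd4 at −0.25 ± 0.28 and Thy1 at −0.24 ± 0.23 had smaller estimates. Over the list, 25 estimates were negative and 3 positive. Every tested T cell marker had UMIs in all 4 resting libraries. The part that the number of T cells in each sort has in these calls was not tested. Without DKO resting replicate 2, 8 of the markers had an unadjusted p under 0.05.

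Of 24 tested NK and innate lymphoid cell markers, 0 were called higher and 3 lower, against 0.058% and 0.104% of all tested genes. The 3 were Ccl3, Ccl4 and Xcl1. The list had 9 members with an unadjusted p under 0.05, all lower in DKO, against 3.06% of all tested genes. It had 12 with both DKO libraries below both WT libraries (17.4% of all tested genes) and 3 with both above (16.4% of all). Its median was −0.37 (−0.82 without DKO resting replicate 2 and −0.13 without DKO resting replicate 1). Ifng, the gene of interferon gamma, stood at 49.2 and 29.4 CPM in WT against 16.6 and 3.71 CPM in DKO (−2.24 ± 0.56, edgeR adjusted p = 0.175). Eomes, a transcription factor of NK and memory CD8 T cells chosen after its values were seen, had 37 and 13 UMIs in WT and 1 and 1 in DKO, and Ctsw, a cathepsin of cytotoxic lymphocytes, stood at −0.83 ± 0.24. The receptor genes of NK cells did not share a direction. Klrb1c was at 0.10 ± 0.58 (95% interval −1.08 to 1.27) and Ncr1 at 0.17 ± 0.70 (−1.25 to 1.59), both at low counts (13, 11, 2 and 15 UMIs for Ncr1 in the order WT then DKO). Klrd1, chosen after its values were seen, was at −1.78 ± 0.57 (edgeR adjusted p = 0.597), with 37, 18, 2 and 7 UMIs in that order. Over the list, 8 estimates were positive and 16 negative. The summed level of the 27 list members in the table was 2576 and 2293 CPM in WT and 2084 and 1937 CPM in DKO. The part of NK cell number in the chemokine calls was not tested.

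**Figure D3:**
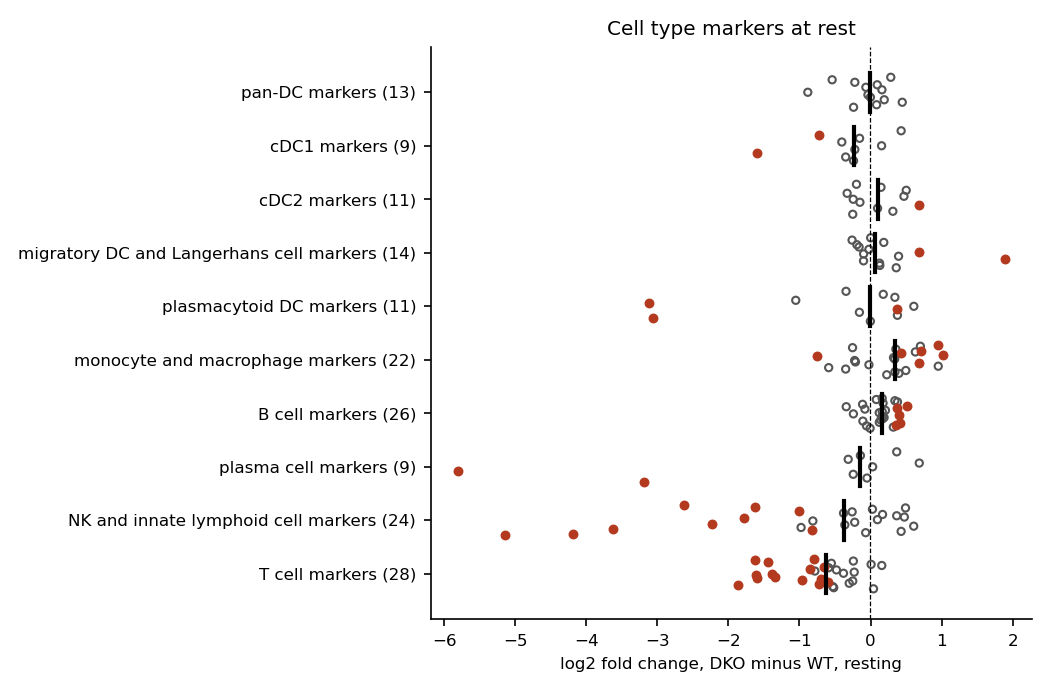
Log2 difference, DKO minus WT at rest, of each tested member of the marker lists (number of tested members in brackets), with filled points for an unadjusted p under 0.05 and a black bar for the median. The T cell list has its median at −0.63 and the NK cell list at −0.37, and the B cell and macrophage medians lie above 0.

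Markers of B cells and of macrophages held no call, and most of their estimates were positive, 19 of 26 and 15 of 22. Over all tested genes 4293 of 8616 were positive, and 2.14% were higher and 3.06% lower at an unadjusted p under 0.05. Of the 26 tested B cell markers, 5 (1 without DKO resting replicate 2) had an unadjusted p under 0.05, all higher in DKO, and 13 had both DKO libraries above both WT libraries, against 16.4% of all tested genes. The summed level of the 27 in the table was 18666 and 19813 CPM in WT and 20683 and 22672 CPM in DKO, with a median difference of 0.16. Pou2af1, a B cell transcriptional coactivator gene, stood at 220 and 242 CPM in WT against 289 and 361 CPM in DKO (0.51 ± 0.21, edgeR adjusted p = 0.867). Of the 22 tested monocyte and macrophage markers, 5 (2 without WT resting replicate 2) had an unadjusted p under 0.05 in the higher direction and 1 in the lower, and the median was 0.35. Lyz1, a lysozyme gene, stood at 39.3 and 68.2 CPM in WT against 111 and 100 CPM in DKO (1.03 ± 0.28, edgeR adjusted p = 0.284). Its paralog Lyz2 stood at 813 and 726 CPM in WT against 930 and 1130 CPM in DKO (0.42 ± 0.18, edgeR adjusted p = 0.909), and reads can be shared between the paralogs. The sums over the 24 macrophage markers in the table were 5045 and 4824 CPM in WT and 6251 and 5877 CPM in DKO.

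Jchain, which joins the subunits of secreted IgM and IgA, was called on 1 library. It had 260 and 0 UMIs in WT and 0 and 2 in DKO, so the groups overlapped. The WT to DKO ratio of the summed counts was 73.6 (exact 95% counting interval 20.2 to 611). The fitted difference was −5.80 ± 1.21 (edgeR adjusted p = 0.0321), and without WT resting replicate 1 it was 3.30. The call was also lost without DKO resting replicate 1 (−5.24) or 2 (−9.28) and without DKO activated replicate 1 (−5.81) or 2 (−5.82). The 10 plasma cell markers in the table, 9 of them tested, summed to 1014 and 760 CPM in WT and to 823 and 814 CPM in DKO. These sums include Jchain itself, at 183 and 0 CPM in WT and 0 and 2.48 CPM in DKO. They therefore give no separate view of WT library 1.

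Eps8l1, related to the actin regulator EPS8, was the call from the list of actin and cell motility. It stood at 28.1 and 21.4 CPM in WT against 78.3 and 102 CPM in DKO, a difference of 1.84 ± 0.37 (3.59-fold higher, edgeR adjusted p = 0.0285). The groups did not overlap, and the call was lost without any 1 of the resting libraries (1.62 to 2.09) or of the DKO activated libraries (1.84 each). The other 49 tested members held no call, where 0.162% of all tested genes were called. An unadjusted p under 0.05 was reached by 3 of them, all higher in DKO, against 2.14% of all tested genes. Tmsb4x, an actin monomer binding protein, stood at 0.39 ± 0.16 and Actb at −0.32 ± 0.16.

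Kdm5d, a histone demethylase gene of the Y chromosome, had 2 and 0 UMIs in WT and 6 and 23 in DKO, a DKO to WT ratio of 25.6 (exact 95% counting interval 6.48 to 221, edgeR adjusted p = 0.049). Its X-linked homolog Kdm5c stood at 79.4 and 69.6 CPM in WT against 35.6 and 34.7 CPM in DKO (−1.09 ± 0.33, edgeR adjusted p = 0.452). The groups did not overlap for either gene. Of other X-linked genes, chosen after the Kdm5d values were seen, Kdm6a was at 0.997 ± 0.806 and Ddx3x at −0.50 ± 0.28. Xist, Tsix, Ddx3y, Eif2s3y and Uty were also looked for and are not among the 10412 genes. After activation Kdm5d had 2 and 2 UMIs in WT and 14 and 3 in DKO. The Kdm5d call was lost without any 1 of the 8 libraries, with a fitted difference, set in part by the prior count, of 3.76 to 6.95. The labels give no sex of donor or host, and the part of sex in the other calls was not tested.

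Genes of antigen presentation and DC maturation showed little difference at rest. Of 22 tested genes of MHC class II presentation, 0 were called and 0 had an unadjusted p under 0.05, and the largest and smallest differences were 0.27 and −0.21. Cd74, the invariant chain gene, stood at 12006 and 14363 CPM in WT against 14001 and 16130 CPM in DKO (0.19 ± 0.15), and H2-Aa stood at 0.16 ± 0.15. Of 21 tested genes of MHC class I presentation 0 were called and 1 had an unadjusted p under 0.05, the transactivator gene Nlrc5 at −0.67, and B2m stood at −0.08 ± 0.17. Of 28 tested maturation genes only Ccl17 was called, against 0.162% of all tested genes. The maturation marker Cd83 stood at 320, 278, 216 and 322 CPM (−0.14 ± 0.21). The 13 tested pan-DC markers held no call and no unadjusted p under 0.05, with a median of −0.00. The costimulatory and coinhibitory list had Cd28 as its only call among 16 tested genes, against 0.162% of all tested genes. Cd86, chosen after its values were seen, was at 28.8 and 34.8 CPM in WT and 35.6 and 39.6 CPM in DKO (0.27 ± 0.39).

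The lists of cytokines (39 tested genes), interferon-stimulated genes (53), immediate early and stress genes (34) and proliferation (28) held no call. Over all tested genes, 2.14% were higher and 3.06% lower at an unadjusted p under 0.05. Cytokine genes had 3 members lower and 2 higher at an unadjusted p under 0.05. Interferon-stimulated genes had 7 members lower and 1 higher at an unadjusted p under 0.05 and a median of −0.26. Iigp1, an interferon-inducible GTPase gene, led them with 34 and 4 UMIs in WT and 1 and 1 in DKO, a WT to DKO ratio of 10.8 (exact 95% counting interval 2.78 to 92.1, edgeR adjusted p = 0.271). Of the immediate early genes 6 were lower and 0 higher at that level, with Dusp1, a phosphatase of MAP kinases, at 92.7 and 40.1 CPM in WT and 21.3 and 17.3 CPM in DKO (−1.85 ± 0.47, edgeR adjusted p = 0.175). Fos (311 and 45.5 CPM in WT, 73.5 and 55.7 CPM in DKO), Fosb (105 and 8.03, 19.0 and 2.48) and Egr1 (124 and 64.2, 52.2 and 64.4), also among these 6, had overlapping groups and were high in WT library 1 alone. That library stands apart in these dissociation stress genes, and its part in the other differences was not tested beyond leaving it out. Proliferation genes had 7 lower and 0 higher and a median of −0.31. Ube2c, a ubiquitin-conjugating enzyme of mitosis, had 17 and 2 UMIs in WT and 0 in both DKO libraries. Over the summed counts that is at least 3.59-fold lower against a floor of 3 UMIs over the group, but 17 of the 19 WT UMIs came from WT library 1. Mki67 (17 and 1 UMIs in WT, 0 and 1 in DKO), Rrm2 (21 and 3, 0 and 1) and Cdk1 (12 and 2, 0 and 0), chosen after their values were seen, were likewise high in WT library 1 alone. Outside the lists, AW112010 was the uncalled gene of the naming rule with the smallest p, at 138 and 76.3 CPM in WT and 35.6 and 48.3 CPM in DKO (−1.35 ± 0.32, edgeR adjusted p = 0.113).

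DKO and WT were also compared in the activated libraries, none of which is in the resting contrast. Both contrasts come from 1 fit that shares its estimate of the spread. Of the 14 genes called at rest, 4 were also called after activation (BC018473, St6galnac2, Icam1 and Eps8l1), where 15 of 8616 genes were called (0.174%). The sign was the same for 11 of 14, against 50.9% of all tested genes. The size was smaller after activation for 13. These 14 genes were picked by their resting values, which favours larger sizes at rest, so this count cannot show a weakening after activation. After activation BC018473 stood at 6.37 ± 0.50, St6galnac2 at 2.99 ± 0.39, Icam1 at −3.48 ± 0.27 and Eps8l1 at 2.50 ± 0.51.

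Cd8a, Cd8b1 and Ccl4 had overlapping groups in the activated state. Cd8a stood at 107 and 221 CPM in activated WT and at 148 and 210 CPM in activated DKO libraries (0.09 ± 0.28), and Cd8b1 at 133, 127, 93.8 and 191 CPM (0.07 ± 0.27). Ccl4 stood at 11.7 and 7.34 CPM in activated WT and at 21.8 and 2.39 CPM in activated DKO (0.58 ± 0.66). The T cell list had a median of −0.01 after activation and −0.63 at rest, and the NK list had −0.31 and −0.37. The difference between the states was itself tested, and edgeR called 0 genes for it, with 397 at an unadjusted p under 0.05 (4.61%), while DESeq2 and limma-voom also called 0 and edgeR without DKO activated replicate 2 called 2. For Ccl4 the change of the difference was −4.76 ± 0.99 (edgeR adjusted p = 0.156) and for Cd8a −1.69 ± 0.42 (edgeR adjusted p = 0.398). Ifng, not called at rest, stood at −2.61 ± 0.53 after activation and was called there (edgeR adjusted p = 0.0174). Cygb, the neighbour of St6galnac2 and also not called at rest, stood at 2.04 ± 0.40 after activation and was called there (edgeR adjusted p = 0.0156).

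**Figure D4:**
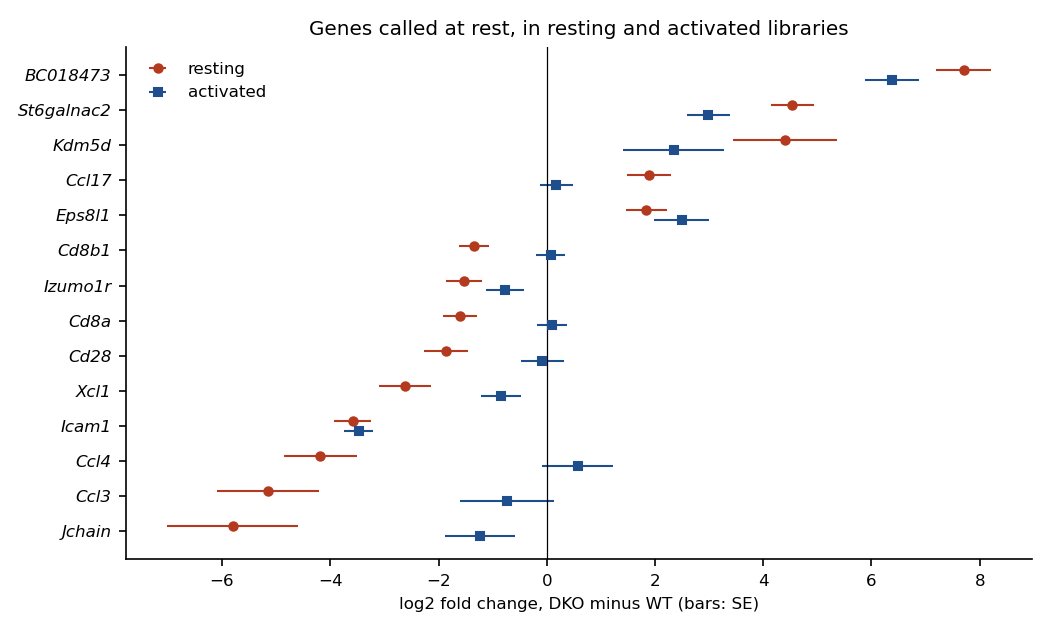
Log2 difference, DKO minus WT, at rest and after activation for the 14 genes called at rest, from the same fit but from separate libraries; bars are the SE. BC018473, St6galnac2, Icam1 and Eps8l1 stand away from 0 in both states, and Cd8a, Cd8b1, Cd28 and Ccl17 lie near 0 after activation.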

How the data were processed

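The libraries compared and the gene lists were chosen with earlier results of these data known. The submitters' processing notes name the build mm10 and, as tools, HTSeq, TopHat2, cutadapt (1.8.3), bcl2fastq (2.17.1.14) and DESeq2. They name no annotation, strand setting or rule for merging UMIs. The authors deposited 1 table, and tests used only its raw UMI counts, one column per library as the file headers name them. All 10412 genes in it reach at least 6 UMIs in 1 of the libraries. The authors' normalized values, a signal per the file headers, served as a check and equalled counts over DESeq2-type size factors in 100% of cells (relative tolerance 1e-06). Values quoted from the authors are their log2 fold changes and p-values, as deposited. Their 8 columns of transformed values were left aside.

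With filterByExpr by group, 8616 genes were tested and 1796 were not. TMM-scaled counts of all 8 libraries went into 1 edgeR model (version 4.0.16, R 4.3.3) with a coefficient per group and 4 residual degrees of freedom, tested by quasi-likelihood F. The SE is the absolute log2 fold change over the root of F. Intervals of count ratios and the floor of 3 UMIs cover counting error only. Depth of the 4 libraries compared was 401984 to 1294777 UMIs, and Spearman correlations between them across genes, which are not independent, were 0.916 to 0.955. Chi-square per degree of freedom was 2.74 between WT and 2.77 between DKO libraries and 2.45 to 2.96 between genotypes, which cannot show whether libraries of a group are separate animals. Each was treated as a sample. No batch is named. Genes named are the LFA-1 list, all called genes, the 10 largest uncalled changes per direction (unadjusted p under 0.05, mean log2 CPM at least 5, no overlap of groups), per list the smallest p and the 2 most abundant members, and 5 by interaction p. Lists are described by counts and medians. GENCODE M21 gave positions by symbol for 10045 of 10412 genes (19 had several entries, and the longest was used). In simulated counts of 8616 genes, 25% of 2-fold and 80% of 4-fold changes were recovered, with 2 false calls in 107. The simulation changed 100 genes at each size, with 1 mean per gene over all groups and edgeR's estimated dispersions. It called 107 genes against 14 in the data, so its threshold was looser and its rates need not hold for the data. Alternatives were DESeq2 1.42.0, its size factors in edgeR, a filter at a summed count of 1 or at 10 CPM in 2 libraries, limma-voom (3.58.1) with quality weights, the 4 resting libraries alone, and each library left out.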

Additional observations from a re-analysis of the deposited data

How the results depend on the processing

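Icam1, BC018473 and St6galnac2 were called in all 14 alternatives. Ccl4 was called in 11, Cd8a in 10, Ccl3 and Cd8b1 in 9, Xcl1 in 8, Eps8l1 in 7, Jchain in 6, Ccl17 in 5, Izumo1r in 4, Cd28 in 3 and Kdm5d in 2, and the causes were not tested. The 14 calls (5 higher and 9 lower) became 4 with DESeq2 (2 and 2), 8 with limma-voom (3 and 5) and 9 in a fit of only the resting libraries, 3 of them higher, and 17 with the filter at a summed count of 1, which kept all 14 and added Ccnd2, Cxcr3 and Penk. When single libraries were left out they ranged from 3 without DKO resting replicate 2 to 13 without WT resting replicate 2, with 2 to 4 higher and 1 to 11 lower, and without WT resting replicate 1 there were 4. Interaction calls ranged from 0 to 2 (without DKO activated replicate 2). Jchain turned to 3.30 without WT resting replicate 1, with −9.28 as its lowest value. Over single libraries left out, Icam2 ranged from −0.61 to 0.14. The T cell markers with an unadjusted p under 0.05 ranged from 8 (without DKO resting replicate 2) to 16 and their median from −0.84 to −0.43, and the NK median from −0.82 to −0.13. B cell markers higher at that level ranged from 1 to 7 (3 with only the resting libraries) and their median from 0.080 to 0.26. Macrophage markers ranged from 2 to 6 and their median from 0.25 to 0.42. No paired analysis was possible because the labels give no replicate numbers shared between groups. With 2 libraries per group and 401984 UMIs in the shallowest, genes of low count can be separated only by large differences.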
